A study of Homo sapiens with 32 samples.

Results

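The mTOR complex subunits described here were 9 genes: MTOR, which encodes the kinase itself, RPTOR and AKT1S1 of mTORC1, MLST8 and DEPTOR, which bind the kinase in both complexes, and RICTOR, MAPKAP1, PRR5 and PRR5L of mTORC2. They were chosen by symbol among the protein-coding rows of both count tables, a rule that uses no measured value although the list was drawn up with earlier results of these data known, and made up 9 of 19815 protein-coding genes and of 60554 annotated genes. Libraries were made from total mRNA (T) and from mRNA of the polysome fractions (P) in 2 human breast cell lines, MCF10A, which is not tumourigenic, and MDA-MB-231, a triple-negative carcinoma line. Cells of each line were kept in normoxia (N), in hypoxia at 0.5% O2 for 24 h (H), in normoxia with PP242 at 2.5 µM for 3 h (NPP) or in hypoxia with PP242 (HPP), and each of the 16 groups had 2 biological replicates. PP242 blocks the kinase of both complexes, so no group here inhibits 1 complex alone, and no group carries a change in a subunit gene. Each line is 1 culture model with its own count table, so the line and its table cannot be told apart, and in these bulk samples fewer cells of a type and less RNA per cell cannot be told apart either. Totals ran from 30302497 to 46032327 counts per library in MCF10A and from 18340916 to 39536845 in MDA-MB-231.

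The mTOR kinase works in a pair of complexes. In mTORC1 the scaffold raptor brings substrates such as the 4E-BPs and the S6 kinases to the kinase, which ties nutrient and energy supply to protein synthesis, and low oxygen is known to dampen this complex. In mTORC2 the subunits rictor and SIN1 direct the kinase to AKT, SGK and PKC, and an ATP-competitive inhibitor such as PP242 blocks both complexes.

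Labels were first checked against marker genes. CA9, a carbonic anhydrase induced by HIF, was higher in H than in N in T by a log2FC of 5.95 ± 0.48 (SE, adjusted p = 0.000161) in MCF10A and of 5.46 ± 0.67 (adjusted p = 0.000445) in MDA-MB-231. EEF2, a TOP mRNA whose translation depends on mTORC1, fell in P under HPP in MDA-MB-231 (log2FC −0.79 ± 0.26, adjusted p = 0.0486), and its value of −1.23 ± 0.52 in MCF10A did not pass the test (adjusted p = 0.116). Under NPP its P values of −1.17 ± 0.52 in MCF10A and −0.65 ± 0.26 in MDA-MB-231 did not pass either (adjusted p = 0.365 and 0.276), nor did those of HPP against H (−0.96 and −0.40, adjusted p = 0.331 and 0.359), so the NPP label has no check here that passed. The libraries labelled MCF10A held the basal keratins KRT5 (median 1920 CPM, the count over the TMM-scaled library total), KRT14 (1543 CPM) and KRT17 (220.6 CPM), but the epithelial markers CDH1, EPCAM and TP63 had medians of only 3, 11 and 1.5 counts. They also held VIM at a median of 2620 CPM, AXL at 346.3 CPM, MSN at 320.4 CPM and ZEB1 at 18.8 CPM, genes fixed here as markers of MDA-MB-231, where the medians were 3974, 844.6, 748.6 and 61.9 CPM. In the libraries labelled MDA-MB-231, KRT5, KRT14 and KRT17 had medians of 0, 10 and 88.5 counts and CDH1 and TP63 of 7.5 and 5. EPCAM went the other way, with a median of 404 counts (12.8 CPM) in MDA-MB-231 against 0.303 CPM in MCF10A. CPM were scaled within each line here and below, so CPM values of the lines are not on a shared scale. The receptors ESR1 and PGR and the leukocyte, hepatocyte and smooth muscle markers PTPRC, ALB and MYH11 had medians of at most 0.595 CPM in both lines, and the endothelial PECAM1 had medians of 0.699 and 1.36 CPM. MCF10A is therefore named here by its label, with 3 of the 6 markers listed for it near 0 counts.

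Levels were compared between subunits per length, as counts per kilobase of the longest coding transcript scaled to the same total in each library. In total mRNA of normoxic MCF10A, MAPKAP1 (61.2 ± 10.8, SD, n = 2) and MLST8 (60.1 ± 16.9) stood highest and overlapped, followed by AKT1S1 (37.8 ± 5.18) and PRR5L (22.1 ± 2.84). RPTOR (8.48 ± 2.04) and MTOR (7.36 ± 0.27) overlapped, and PRR5 (4.70 ± 0.80), RICTOR (2.30 ± 0.67) and DEPTOR (0.325 ± 0.0094) followed without overlap between neighbours. In MDA-MB-231 the order was MAPKAP1 (83.8 ± 4.63), AKT1S1 (60.1 ± 3.53), MLST8 (58.8 ± 2.86), RPTOR (11.8 ± 0.30), MTOR (9.23 ± 1.25), RICTOR (7.88 ± 3.22), PRR5L (5.72 ± 0.96) and DEPTOR (1.72 ± 0.043), with PRR5 at 0. There the libraries of AKT1S1 and MLST8, of MTOR and RICTOR, and of RICTOR and PRR5L overlapped. The lowest normoxic T library of MAPKAP1, AKT1S1 or MLST8, at 34.1, thus lay above every normoxic T library of RPTOR, MTOR and RICTOR in either line. The order depends on the transcript chosen, since PRR5L in MCF10A moved to 90.2 with the median length of its 11 coding transcripts in place of the longest. That mean was above those of all other subunits, but its libraries (82.6 and 97.7) overlapped those of MAPKAP1 (70.2 and 89.1).

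**Figure D1:**
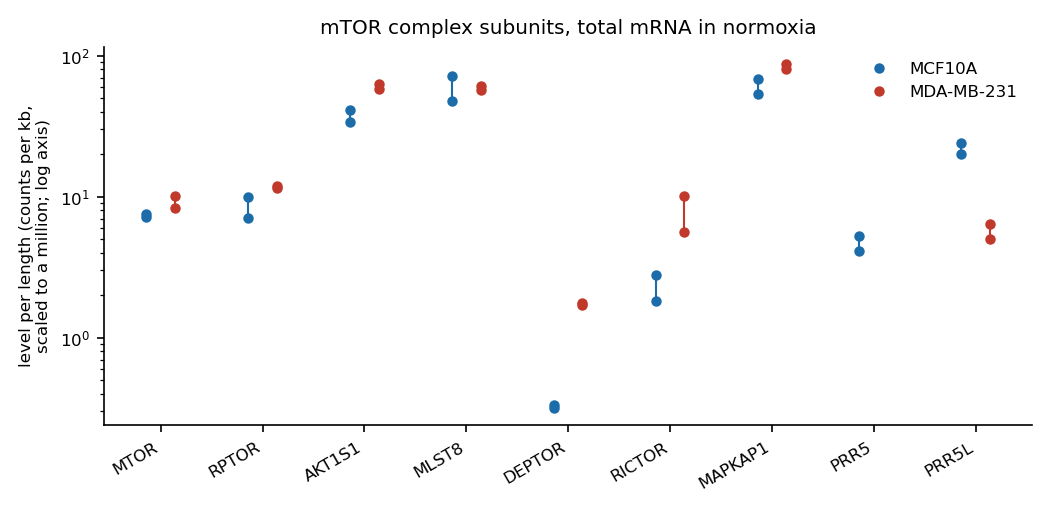
Level per length of the 9 subunits in total mRNA of normoxic cells, on a log axis, with 1 point for each of the 2 libraries of a line joined by a line. MAPKAP1, MLST8 and AKT1S1 lie highest in both lines, and PRR5 in MDA-MB-231, at 0 in both libraries, is not drawn.

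Treatments were compared with normoxia within T and within P, in edgeR's quasi-likelihood test with Benjamini-Hochberg adjustment over all genes. Of the 9 subunits, MAPKAP1 fell in both T and P of MCF10A under HPP and PRR5 fell in P, and this fit, which has no replicate block, made no other call among the subunits under any treatment in either line. Same-numbered T libraries of MCF10A deviated together (6 of 6 pairs, r = 0.283 to 0.778), and a replicate block within each fraction raised the calls in that line from 3 to 7. The 4 added, all under HPP, were MTOR (log2FC −0.91, adjusted p = 0.0388) and PRR5 (−1.33, adjusted p = 0.0184) in T and MLST8 (−0.91, adjusted p = 0.0233) and RICTOR (1.52, adjusted p = 0.0393) in P. In P 3 of 6 pairs were over 0.1, namely N with H (r = 0.635), N with HPP (0.311) and H with HPP (0.481). The pairs with NPP were not (−0.1 to 0.058). The MLST8 and RICTOR calls compare HPP with N, whose same-numbered P libraries thus deviated together. In the fit without a block, 1 of 9 subunits was called under HPP in T of MCF10A, where 14.9% of 13124 genes were called. In P 2 of 9 were called, where 22.2% of genes were. In MDA-MB-231, where PRR5 was too low to be tested, 0 of 8 were called under HPP in T (13.2% of 13510 genes called) and 0 of 8 in P (19.4%). Without a block the members' share was thus below or at the background in each of these 4 comparisons, on 8 or 9 genes. The block within each fraction also raised the calls over all 13124 genes under HPP in MCF10A. With it 3484 genes were called in T (1956 without it), and 4785 in P (2910 without it). The rise in member calls with this block thus came with a rise over all genes. The members' share under HPP in MCF10A with this block lay above that of all genes in T and in P, on 9 genes. The median log2FC of the members under HPP was 0.061 in T and −0.319 in P of MCF10A and 0.012 and −0.031 in MDA-MB-231, beside −0.012, −0.036, −0.053 and 0.013 over all genes tested. Replicates spread more in MCF10A, with a common biological coefficient of variation of 0.325 against 0.150 in MDA-MB-231, and a value that misses the threshold does not show that a subunit was unaltered.

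With a single agent no subunit was called by edgeR in this fit, and without a filter beyond 1 read RICTOR passed under NPP in P of MDA-MB-231 (log2FC 0.62, adjusted p = 0.046). Hypoxia called 0 of 9 in MCF10A (1.54% of all genes in T, 1.49% in P) and 0 of 8 in MDA-MB-231 (1.27% in T, 2.29% in P). PP242 in normoxia called 0 of 9 in MCF10A (0.648% in T, 0.823% in P) and 0 of 8 in MDA-MB-231 (0.555% in T, 1.95% in P). At an unadjusted p under 0.05 there were 2 of 18 member tests with hypoxia and 2 of 18 with PP242 in MCF10A, and 3 of 16 and 1 of 16 in MDA-MB-231, and DESeq2 called 0 in each. Of all 13124 genes in MCF10A, 1426 in T and 1636 in P reached that level with hypoxia, and 1252 and 1752 with PP242. Of 13510 in MDA-MB-231, 1712 and 2327 did so with hypoxia and 1385 and 1838 with PP242. In MCF10A the members' median log2FC was −0.169 in T and −0.228 in P under H and −0.289 and −0.234 under NPP, where all genes had medians of −0.030, −0.067, 0.018 and −0.035. In MDA-MB-231 the members' medians lay between −0.082 and −0.024 over these comparisons. PP242 added to hypoxia (HPP against H) called 0 of 9 in MCF10A (3.74% of genes in T, 6.5% in P) and 0 of 8 in MDA-MB-231 (3.78% in T, 11.5% in P), with 3 unadjusted in each line and 1 call by DESeq2, PRR5 in P of MCF10A. Among all genes, 2078 in T and 2752 in P of MCF10A were unadjusted calls there, and 2500 and 3592 in MDA-MB-231.

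**Figure D2:**
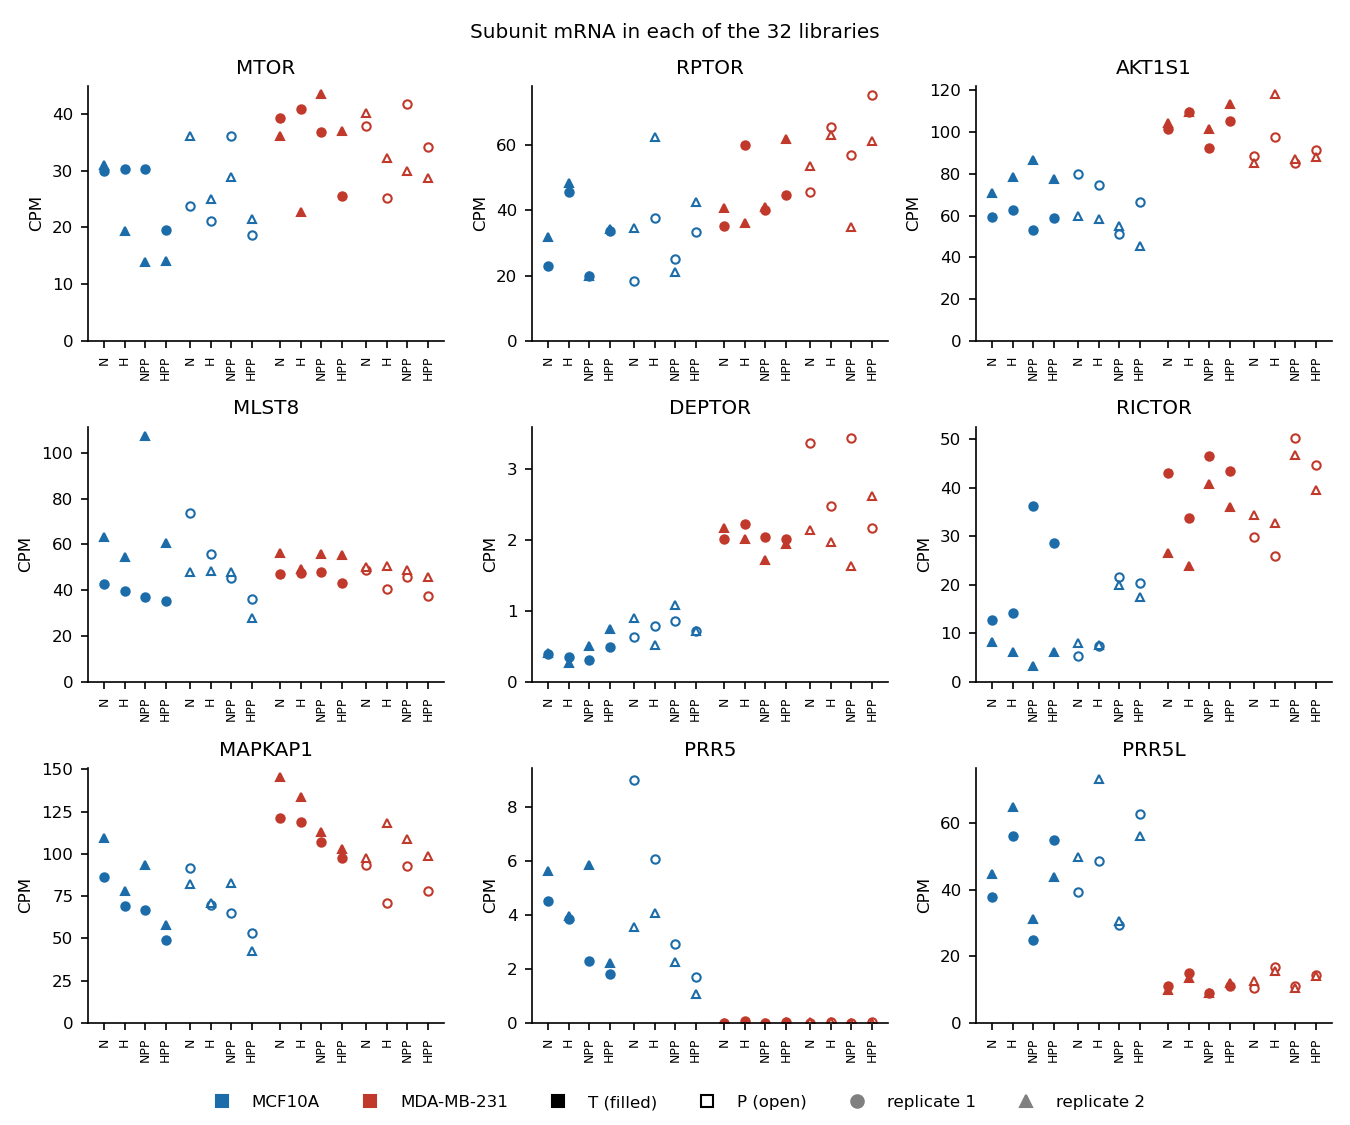
CPM of each subunit in all 32 libraries, scaled within each line, 1 panel per gene. MCF10A is in blue and MDA-MB-231 in red, with T filled and P open, and circles and triangles for replicates 1 and 2. PRR5 lies at 0 to 0.0543 CPM in every MDA-MB-231 library, and MAPKAP1 in MCF10A is lowest under HPP in T and in P. RICTOR in P is higher in all PP242 libraries than in the others of its line, a separation not counted over all genes.

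MTOR, the catalytic subunit, lies at chr1:11106535-11262556 on the minus strand of GRCh38, in 58 exons of a longest transcript of 8721 nt. In T of MCF10A it read 29.98 and 31.0 CPM in N, 30.4 and 19.4 in H, 30.2 and 13.9 in NPP, and 19.5 and 14.0 in HPP. Both HPP libraries lay below both N libraries, and the H and NPP groups overlapped N. In P it read 23.8 and 36.1 CPM in N and 18.7 and 21.5 CPM in HPP, again without overlap. The log2FC under HPP was −0.86 ± 0.37 in T (adjusted p = 0.149) and −0.58 ± 0.37 in P (adjusted p = 0.289). When each library was given a loess offset for transcript length, both passed the test, at −0.65 (adjusted p = 0.0314) and −0.81 (adjusted p = 0.00863). The value in T also passed with a replicate block within each fraction. In MDA-MB-231 MTOR read 39.4 and 36.1 CPM in N and 25.5 and 36.9 CPM in HPP in T, which overlapped, and the log2FC was −0.28 ± 0.25 (adjusted p = 0.510). In P of that line it read 37.8 and 40.3 CPM in N, 25.3 and 32.3 in H, 41.8 and 29.9 in NPP, and 34.2 and 28.8 in HPP. Both H and HPP lay below N there without overlap, at a log2FC of −0.44 ± 0.25 and −0.31 ± 0.25 (adjusted p = 0.404 and 0.416), so neither passed the test.

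RPTOR encodes raptor, which recruits the substrates of mTORC1, and lies at chr17:80544819-80966371 on the plus strand, with a longest transcript of 6838 nt. In T of MCF10A it read 23.1 and 31.9 CPM in N, 45.7 and 48.4 in H, 19.7 and 19.9 in NPP, and 33.6 and 34.2 in HPP. Both H libraries and both HPP libraries lay above the normoxic ones with and without PP242, and NPP lay below N. In P of that line the values were 18.5 and 34.7 CPM in N and 37.6 and 62.6 CPM in H, again with no overlap. The log2FC in H was 0.77 ± 0.33 in T (adjusted p = 0.409) and 0.91 ± 0.33 in P (adjusted p = 0.255), so neither passed the test. In MDA-MB-231 RPTOR read 35.3 and 40.8 CPM in N and 60.0 and 36.2 CPM in H in T, which overlapped, and 45.5 and 53.6 against 65.7 and 63.0 CPM in P, which did not. The log2FC in H there was 0.34 ± 0.25 and 0.38 ± 0.25 (adjusted p = 0.632 and 0.471), the former turning to −0.07 without replicate 1 of H in T, and under HPP it was 0.49 ± 0.25 in T and 0.46 ± 0.25 in P (adjusted p = 0.214 and 0.205), both of which passed without a filter beyond 1 read (0.57 and 0.55, adjusted p = 0.0305 and 0.0272).

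AKT1S1 encodes PRAS40, an inhibitory partner of raptor, at chr19:49869033-49878459. Its log2FC against N ran from −0.40 to 0.11 in MCF10A and from −0.09 to 0.31 in MDA-MB-231 over the 6 comparisons of each line, and none was called. The largest of these in MDA-MB-231 was in P under H, at 88.6 and 85.2 CPM in N against 97.8 and 118 CPM in H (log2FC 0.31 ± 0.12, adjusted p = 0.210). The gene overlaps TBC1D17 on the other strand, and with no strand used in the counting such reads cannot be told apart with certainty.

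MLST8, a beta-propeller protein that stabilises the kinase domain in both complexes, lies at chr16:2204248-2209453 and has a short longest transcript of 1861 nt. In MCF10A it read 42.9 and 63.1 CPM in N and 37.0 and 107.3 CPM in NPP in T, so the NPP replicates differed far more than the groups. In P under HPP it read 36.4 and 27.98 CPM against 73.9 and 47.8 in N, without overlap (log2FC −0.92 ± 0.45, adjusted p = 0.166). With a replicate block within each fraction this value passed the test. In MDA-MB-231 all 16 values lay between 37.4 and 56.2 CPM.

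DEPTOR, an inhibitor that binds the kinase in both complexes, is a gene of chromosome 8 and the subunit with the lowest level per length in MCF10A. Its normoxic T libraries held only 15 and 19 counts there (0.392 and 0.400 CPM), against 56 and 38 counts in MDA-MB-231 (2.01 and 2.16 CPM, scaled within that line). Its log2FC against N ran from −0.34 to 0.63 in MCF10A and from −0.30 to 0.03 in MDA-MB-231, with SE of 0.32 to 0.45, and none passed the test.

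RICTOR, the scaffold of mTORC2, lies at chr5:38937920-39074402 on the minus strand and has the longest transcript of the 9, 9533 nt. It overlaps OSMR on the other strand, which held 565 to 5766 counts per library. In P of MCF10A it read 5.27 and 8.02 CPM in N and 7.40 and 7.56 in H, against 21.7 and 20.0 in NPP and 20.4 and 17.5 in HPP. In P of MDA-MB-231 it read 29.9 and 34.5 CPM in N and 25.9 and 32.7 in H, against 50.2 and 46.8 in NPP and 44.7 and 39.5 in HPP. In each line all 4 polysomal libraries with PP242 thus lay above all 4 without it. How many of all genes separated in this way was not counted. The log2FC against N in P was 1.65 ± 0.88 in NPP and 1.51 ± 0.88 in HPP in MCF10A (adjusted p = 0.473 and 0.242), while the MDA-MB-231 values were 0.59 ± 0.22 and 0.39 ± 0.22 (adjusted p = 0.238 and 0.233), so none passed the test. In a fit to only the 4 libraries compared, the value for HPP in MCF10A did (log2FC 1.58, adjusted p = 0.0293). That value also passed with a replicate block within each fraction.

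Total mRNA of RICTOR in MCF10A split by replicate. Replicates 1 and 2 read 36.2 and 3.27 CPM in NPP and 28.6 and 6.08 CPM in HPP, against 12.7 and 8.22 CPM in N and 14.2 and 6.20 CPM in H. The log2FC in T was 0.92 ± 0.87 in NPP and 0.73 ± 0.87 in HPP (adjusted p = 0.783 and 0.637), and without replicate 1 of the treated group it turned to −1.68 and −0.69. The same libraries differed in how transcripts of 6000 nt or more stood relative to those under 2000 nt. This length trend, a difference of median log2 deviations from the line mean, was 0.707 and −1.42 in replicates 1 and 2 of NPP and 0.622 and −0.737 in those of HPP, against 0.362 and 0.259 in N and 0.725 and −0.13 in H. RICTOR held 14.2 and 6.20 CPM in those H libraries. In P of MCF10A the trend was −0.991 and 0.341 in N, −0.622 and 0.364 in H, −0.03 and −0.053 in NPP and 0.151 and 0.514 in HPP, while over all MDA-MB-231 libraries it stayed between −0.365 and 0.252. With the length offset the P log2FC of RICTOR was 1.59 in NPP and 1.27 in HPP in MCF10A (adjusted p = 0.115 and 0.0866), and 0.53 and 0.23 for the other line. RPTOR, whose transcript is also long, had a log2FC in H in MCF10A of 0.78 in T and 0.86 in P with that offset (adjusted p = 0.310 and 0.232), so neither passed the test.

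**Figure D3:**
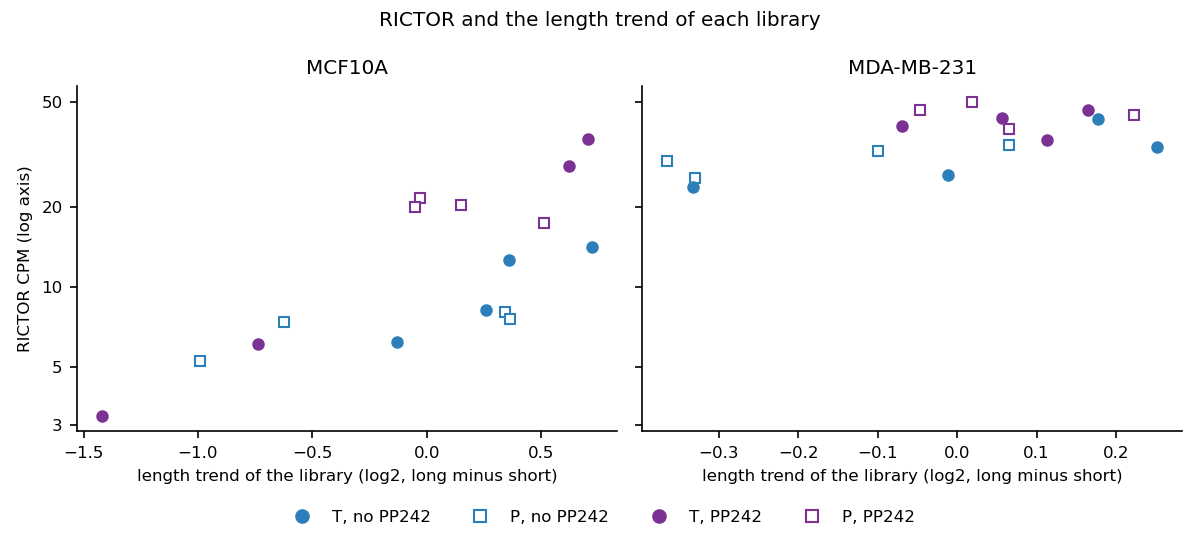
RICTOR CPM on a log axis against the length trend of the library (median log2 deviation of long minus short transcripts) for the 16 libraries of each line, with T filled, P open and PP242 in purple. In MCF10A the 2 T libraries with PP242 and a negative trend, at −1.42 and −0.737, hold 3.27 and 6.08 CPM, and those at 0.707 and 0.622 hold 36.2 and 28.6 CPM, while the T library of H at 0.725 holds 14.2 CPM.

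MAPKAP1 encodes SIN1, which holds mTORC2 together and presents its substrates, and lies at chr9:125437393-125707234 on the minus strand. In T of MCF10A it read 86.5 and 109.1 CPM in N, 69.1 and 78.1 in H, 66.7 and 93.3 in NPP, and 49.1 and 57.9 in HPP. In P the values were 91.3 and 82.2 in N, 69.5 and 71.0 in H, 65.0 and 82.6 in NPP, and 53.0 and 42.6 in HPP. HPP was the lowest group in both fractions, with no overlap with any other group, and H also lay below N without overlap. The fall under HPP was −0.87 ± 0.24 in T (adjusted p = 0.0336) and −0.86 ± 0.24 in P (adjusted p = 0.0268), while H alone gave −0.41 ± 0.24 and −0.30 ± 0.24 and NPP −0.29 ± 0.24 and −0.23 ± 0.24, none of them called. Both calls were lost without a filter beyond 1 read (adjusted p = 0.0899 in T and 0.0805 in P) and in a fit to only the 4 libraries compared (0.0833 and 0.122), and that in P also without TMM (0.0558). The log2FC kept its sign without any single library, between −1.03 and −0.66 in T and between −1.03 and −0.71 in P, but the call was lost in 8 of 16 such omissions in T and in 7 of 16 in P. In T these were either library of N, H or HPP in T and replicate 1 of N or of H in P, with the highest adjusted p, 0.240, without replicate 2 of N. In P they were either library of N in P or of HPP in T, replicate 1 of H in P, replicate 2 of HPP in P and replicate 2 of H in T, with the highest, 0.193, without replicate 1 of N. In MDA-MB-231 it read 121 and 146 CPM in N and 97.5 and 102.8 CPM in HPP in T, without overlap (log2FC −0.41 ± 0.20, adjusted p = 0.193), and in P the groups overlapped.

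PRR5, or Protor-1, is a rictor-binding subunit at chr22:44668547-44737681 on the plus strand. In P of MCF10A it read 9.01 and 3.55 CPM in N, 6.08 and 4.07 in H, 2.92 and 2.25 in NPP, and 1.69 and 1.08 in HPP. Both HPP libraries lay below all others of that fraction, and the log2FC against N was −2.17 ± 0.52 (adjusted p = 0.0122). Without replicate 1 of N in P, the highest library, it was −1.29 with an adjusted p of 0.150, and without replicate 2 of HPP in P it was −1.88 with an adjusted p of 0.118. In T the values were 4.52 and 5.65 CPM in N and 1.82 and 2.22 CPM in HPP, without overlap. The log2FC of −1.33 ± 0.51 did not pass the test (adjusted p = 0.102), though it did with the length offset (−1.45, adjusted p = 0.0171). It also passed with a replicate block within each fraction. The readthrough gene PRR5-ARHGAP8 on the same strand held at most 16 counts per MCF10A library, against 48 to 268 for PRR5, and with its counts added the log2FC in P was −2.07 (adjusted p = 0.0108).

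PRR5L, or Protor-2, the paralog of PRR5, lies at chr11:36296288-36465204 on the plus strand. In T of MCF10A it read 38.0 and 44.6 CPM in N, 56.1 and 65.0 in H, 24.9 and 31.3 in NPP, and 55.0 and 44.0 in HPP. In T of MDA-MB-231 it read 11.2 and 9.83 CPM in N, 15.1 and 13.5 in H, 8.92 and 8.98 in NPP, and 11.0 and 11.9 in HPP. In both lines H lay above N and NPP below N without overlap in T. In P the H libraries read 48.5 and 73.4 CPM against 39.5 and 49.9 in N in MCF10A, which overlapped, and 16.8 and 15.6 CPM against 10.5 and 12.5 in MDA-MB-231, which did not. The log2FC in H was 0.55 ± 0.26 in T and 0.45 ± 0.26 in P of MCF10A (adjusted p = 0.472 and 0.542). For MDA-MB-231 it was 0.44 ± 0.15 and 0.49 ± 0.15 (adjusted p = 0.203 and 0.103). Without replicate 2 of H in P the MCF10A value in P was 0.12, and none of the 4 passed the test with any single library left out.

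**Figure D4:**
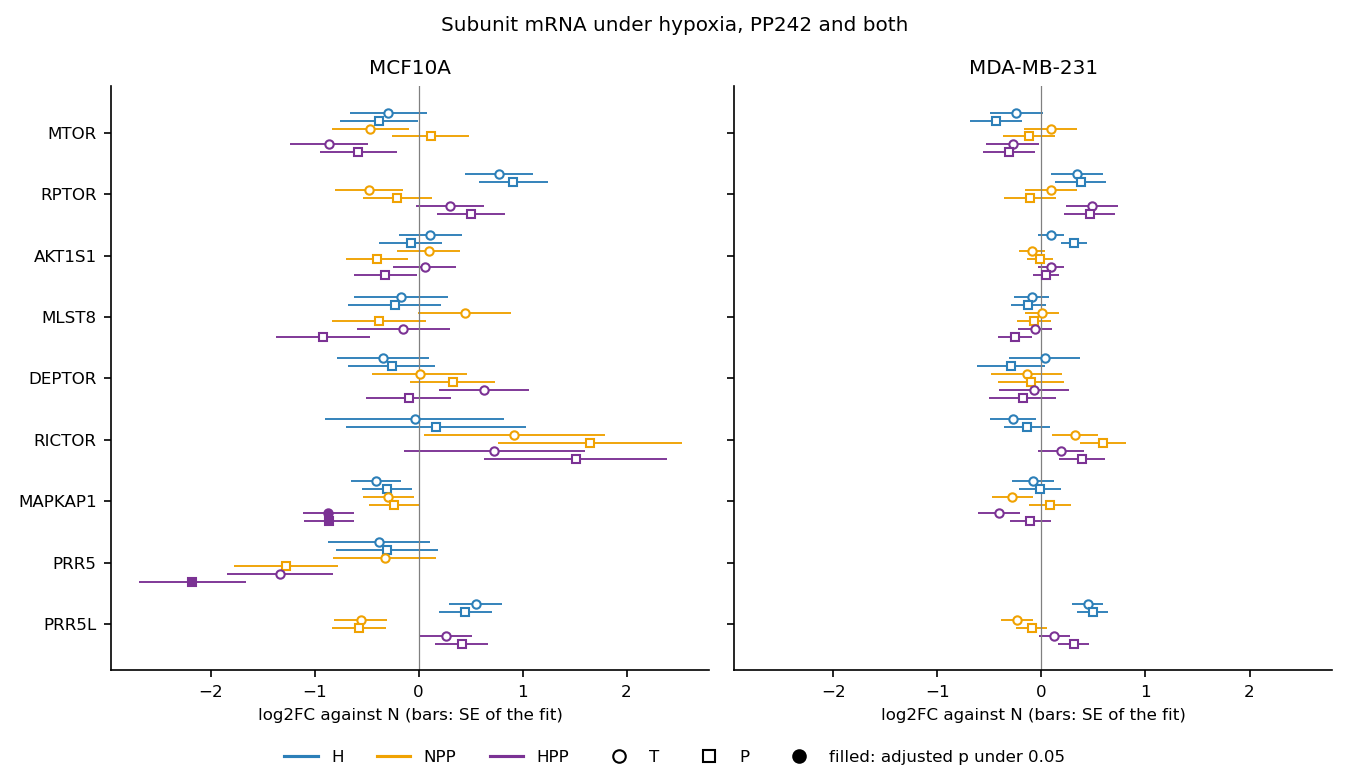
log2FC against normoxia of each subunit in MCF10A and MDA-MB-231, in T (circles) and P (squares), under H, NPP and HPP, with bars for the SE of the fit and filled symbols for an adjusted p under 0.05. The fit drawn has no replicate block, and its 3 filled symbols are MAPKAP1 in T and P and PRR5 in P, all under HPP in MCF10A.

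Over the 16 group means, centred within each line and with PRR5 left out, RPTOR and PRR5L were the most alike pair of subunits (Pearson r = 0.894). This is a description over groups that share lines, depth and controls. The next pair, MLST8 and MAPKAP1, had r = 0.747, and the most opposed, RICTOR and AKT1S1, had r = −0.717. Among 12374 genes tested in both lines, those most like RPTOR were XYLT2 (r = 0.949), TBC1D9B (0.944) and EGLN1 (0.940), the last of which encodes the oxygen-sensing prolyl hydroxylase PHD2. For MTOR they were BARD1 (0.952), USP13 (0.945) and LARP1B (0.934), and for RICTOR EMC1 (0.973), AASDH (0.947) and IFT172 (0.946).

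**Figure D5:**
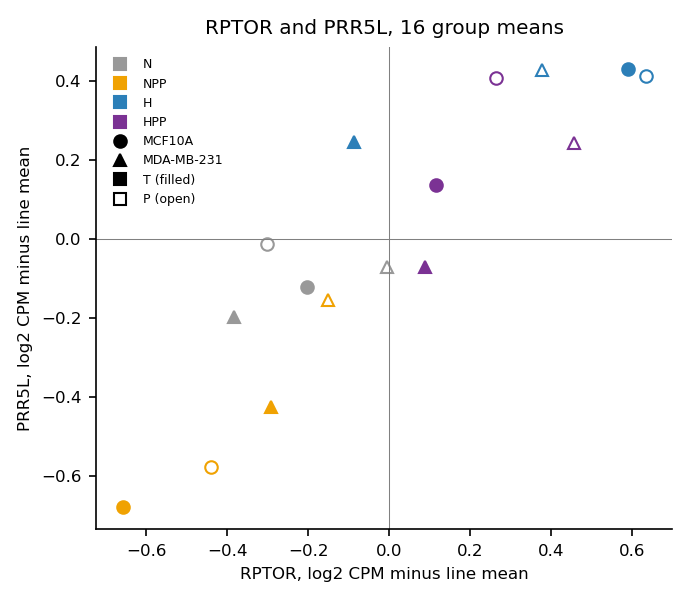
Group means of log2 CPM of RPTOR and PRR5L minus the line mean, for the 16 groups, with circles for MCF10A, triangles for MDA-MB-231, filled symbols for T and open ones for P. All N groups and all 4 NPP groups lie below 0 on both axes. Of the 8 H and HPP groups 6 lie above 0 on both, the exceptions being H and HPP in T of MDA-MB-231 (r = 0.894).

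Since RPTOR and PRR5L, a pair chosen after their values were seen, were high in the same groups, the 250 bases upstream of their first RefSeq starts are shown, each with any match to ACGTG or GCGTG, the core of the hypoxia response element, in capitals. Both strands were searched, so CACGT and CACGC on the printed strand count as matches. The windows are chr17:80544588-80544837 on the plus strand for RPTOR and chr11:36296038-36296287 on the plus strand for PRR5L, in GRCh38.p14, with both sequences from RefSeq:
RPTOR: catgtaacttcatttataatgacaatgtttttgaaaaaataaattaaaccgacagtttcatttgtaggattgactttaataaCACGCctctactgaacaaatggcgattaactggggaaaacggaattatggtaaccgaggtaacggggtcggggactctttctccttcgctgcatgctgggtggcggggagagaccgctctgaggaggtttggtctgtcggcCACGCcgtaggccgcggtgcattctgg
PRR5L: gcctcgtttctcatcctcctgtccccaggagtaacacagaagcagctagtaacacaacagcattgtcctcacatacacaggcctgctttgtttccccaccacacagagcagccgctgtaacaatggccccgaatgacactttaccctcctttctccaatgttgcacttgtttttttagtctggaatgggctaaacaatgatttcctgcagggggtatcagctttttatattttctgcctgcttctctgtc
RPTOR held 2 matches and PRR5L 0 in this window and in the windows of its other 2 starts. RICTOR held 2, MTOR 1 and MAPKAP1 0, and the windows of the 3 starts of PRR5 held 1, 0 and 5. Over 20409 windows of protein-coding genes in the files, 49.6% held a match, so a match in a single window is a description and not a site.

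Te, the log2FC in P minus that in T against N, was tested in the same fit, although the T and P libraries of a treatment and replicate share a culture by their titles. It called 0 of 9 subunits in MCF10A for H, NPP and HPP (0% of all genes called in each, with 23, 296 and 433 genes at an unadjusted p under 0.05) and 0 of 8 in MDA-MB-231 (0.0148%, 0.34% and 0.696%). No member reached an unadjusted p under 0.05 in any of these, where 180, 295 and 454 genes of MDA-MB-231 did, and DESeq2 called 0 members. A block for culture also called 0 members, and over all genes under NPP in MDA-MB-231 it lowered the calls from 46 to 8. The values furthest from 0 in MCF10A were −0.95 ± 0.70 under NPP and −0.84 ± 0.71 under HPP, both for PRR5, and in MDA-MB-231 0.36 ± 0.28 for MAPKAP1 under NPP. For MTOR itself Te was −0.09 ± 0.53 in H, 0.58 ± 0.53 in NPP and 0.29 ± 0.53 in HPP in MCF10A, while the MDA-MB-231 values were −0.20 ± 0.36, −0.21 ± 0.36 and −0.03 ± 0.36. In normoxia P against T called 0 of 9 in MCF10A (0% of genes, 1660 at an unadjusted p under 0.05, of which 1 was a subunit) and 0 of 8 in MDA-MB-231 (13.1% of genes, 3955 at an unadjusted p under 0.05, of which 1 was a subunit), and DESeq2 called 0 subunits in either. That MDA-MB-231 subunit was MAPKAP1, lower in P by 0.48 ± 0.20 (adjusted p = 0.123), and in MCF10A it was DEPTOR, at 0.96 ± 0.42 (adjusted p = 0.387). With a replicate block MAPKAP1 passed the test at the same log2FC, in a fit that called 2340 genes in place of 1764.

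Between the lines, DEPTOR and RICTOR were higher in MDA-MB-231, and PRR5 and PRR5L lower. In a joint fit of all 32 libraries, normoxic MDA-MB-231 against normoxic MCF10A called 3 of 9 subunits in T, where 40.7% of 14298 genes were called, and 4 of 9 in P, where 45.4% were, so the share of members was below or near the background. DEPTOR was higher in MDA-MB-231 by a log2FC of 1.92 ± 0.39 in T (adjusted p = 0.000406) and 1.49 ± 0.37 in P (adjusted p = 0.00217). RICTOR was higher in P by 1.95 ± 0.68 (adjusted p = 0.0232), and in T the value of 1.28 ± 0.66 did not pass (adjusted p = 0.130). Its CPM in P, scaled within each line, were 29.9 and 34.5 against 5.27 and 8.02. The RICTOR call in P was lost with a replicate block (1.54, adjusted p = 0.0716), without replicate 1 of MCF10A N in P (adjusted p = 0.168) and without either MDA-MB-231 N library in P (adjusted p = 0.0504 and 0.0857).

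Both Protor genes were lower in MDA-MB-231. PRR5L read 11.2 and 9.83 CPM there against 38.0 and 44.6 CPM in T of normoxic MCF10A. These CPM were scaled within each line and are not on a shared scale. The joint fit, scaled over all libraries, gave a log2FC of −2.44 ± 0.22 in T and −2.28 ± 0.22 in P (adjusted p = 1.53e-08 and 3.38e-08). PRR5 held 173 and 268 counts in T of MCF10A and 0 and 0 in MDA-MB-231, where a total of 0 over both libraries allows up to 3 counts, so it was at least 78.0-fold lower. In P it held 258 and 177 counts against 0 and 1, a ratio of MCF10A to MDA-MB-231 of 298.7 (95% exact interval 53.3 to 11830, which covers counting error only). Both the bound in T and this ratio used library totals scaled within each line, with no scaling between the lines. Over all 16 MDA-MB-231 libraries PRR5 summed to 9 counts, and its readthrough gene to 2. Neither MTOR (log2FC −0.16 ± 0.33 in T and 0.06 ± 0.33 in P) nor RPTOR (−0.003 ± 0.32 and 0.57 ± 0.32) was called between the lines, nor were AKT1S1, MLST8 and MAPKAP1. RPTOR in P passed with a replicate block (0.86, adjusted p = 0.0338) and MTOR in T with the length offset (−0.53, adjusted p = 0.0315).

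The difference between the lines in response to treatment was tested in the joint fit, where PRR5 could not be compared because it held almost no counts in MDA-MB-231. Of the other 8 subunits it called 0 for H (0.266% of genes in T, 0.329% in P), 0 for NPP (0.056% and 0.126%) and 0 for HPP (3.31% and 3.6%), and DESeq2 called 0. MAPKAP1 under HPP in P was the only test of these subunits at an unadjusted p under 0.05, with a fall smaller by 0.73 ± 0.32 in MDA-MB-231 (adjusted p = 0.246), so the MAPKAP1 calls of MCF10A are not shown to be particular to that line. In that comparison 2392 of 14298 genes reached the same unadjusted level.

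Of 67 other genes of the mTOR pathway, 63 were tested in MCF10A and 66 in MDA-MB-231. Under HPP, 4 rose and 4 fell in T of MCF10A and 6 rose and 2 fell in P, against 4 and 5 in T and 7 and 7 in P of MDA-MB-231, with median log2FC of −0.152, −0.152, 0.001 and 0.076, where the medians of all genes tested were −0.012, −0.036, −0.053 and 0.013. These 8 and 8 of 63 and 9 and 14 of 66 pathway genes stood beside 14.9%, 22.2%, 13.2% and 19.4% of all genes called, shares below or near that background, so the genes named next are descriptions of single genes and not of the pathway. Of the 27 genes of amino acid sensing at the lysosome, FLCN, the folliculin subunit that acts on RagC and RagD, rose under HPP by 2.08 ± 0.37 in T and 2.59 ± 0.38 in P of MCF10A (adjusted p = 0.0035 and 0.000932), and the rise in MDA-MB-231 was 1.12 ± 0.20 and 1.10 ± 0.19 (adjusted p = 0.00258 and 0.00174). In P of MCF10A it read 13.1 and 15.7 CPM in N and 73.0 and 100 CPM in HPP. Of the 5 chaperones that fold PIKK kinases such as mTOR, RUVBL1 fell in MCF10A by 1.09 on the log2 scale in T and by 1.29 in P, and in MDA-MB-231 TTI1 fell in T by 0.53 and TELO2 in P by 0.51.

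Among the stress inputs SESN3, a sestrin that holds back mTORC1, rose in MDA-MB-231 by 1.81 ± 0.22 in T and 1.77 ± 0.22 in P, and it was too low to be tested in MCF10A. TSC1, a subunit of the complex that switches off RHEB, rose in P of MDA-MB-231 by 0.50 ± 0.15. Among substrates of mTORC1, GRB10, an adaptor that damps insulin signalling, fell in MCF10A (log2FC −1.99 in T and −1.57 in P), and EIF4EBP2, a repressor of cap-dependent translation, fell in P of MDA-MB-231 by 0.96. Of the substrates of mTORC2, SGK1 rose in P of MCF10A by 0.91 ± 0.29 and SGK3 fell in T of MDA-MB-231 by 0.57. ATR, a related kinase of the DNA damage response, fell in MDA-MB-231 by 0.79 in T and by 0.81 in P. Under H alone 0 of 63 pathway genes were called in MCF10A in T or P (1.54% and 1.49% of all genes called), and 0 of 66 in T and 3 of 66 in P of MDA-MB-231 (1.27% and 2.29%). Under NPP 1 of 63 was called in T and 1 in P of MCF10A (0.648% and 0.823% of all genes), and 2 of 66 in T and 5 of 66 in P of MDA-MB-231 (0.555% and 1.95%). The 5 in P, named after their values were seen, all rose, FNIP1 by 1.31, SESN3 by 1.01, FLCN by 0.99, RRAGC by 0.79 and LPIN1 by 0.70. For HPP against H the counts were 4 of 63 in both T and P of MCF10A (3.74% and 6.5%) and 5 of 66 in T and 13 of 66 in P of MDA-MB-231 (3.78% and 11.5%). The shares under NPP and for HPP against H were near or above the background, on counts of 1 to 13 genes.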

How the data were processed

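Total and polysomal RNA of both lines was sequenced by the authors. They aligned reads with STAR and quantified genes with RSEM on a GENCODE annotation, and deposited expected counts per gene, which were whole numbers in the files and were used as deposited. The labels name GRCh37 and the methods GRCh38, and the count tables hold no coordinates, so loci come from a GENCODE annotation on GRCh38 matched by gene ID, and promoter windows from RefSeq. RSEM ran with default parameters, which use no strand, and divides reads shared by overlapping genes or paralogs by estimate.

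Protein-coding genes passing filterByExpr by group were fitted with edgeR 4.0.16 in R 4.3.3 (TMM, quasi-likelihood F test, Benjamini-Hochberg over all genes, threshold 0.05), in 1 fit of 16 libraries per line and a joint fit of 32. CPM used totals scaled by TMM within each line, so CPM of the lines are not on a shared scale. The log2FC between the lines came from the joint fit with its own TMM. DESeq2 1.42.0 was an alternative, and the fits were tested on simulated data. The 2 libraries of a group are labelled biological replicates. With 2 against 2 an exact two-sided permutation test cannot go below p = 0.333, so single values have no test of their own. No pair of replicates agreed within sampling noise. Replicate numbers mark no shared batch of different treatments in the labels, while the titles give the T and P library of a treatment and replicate the same culture number, used as a block in an alternative for Te and for P against T. In MCF10A the deviations of same-numbered libraries correlated over 0.1 in 6 of 6 pairs within T (0.283 to 0.778) and in 3 of 6 within P (−0.1 to 0.635). They did so in 1 of 12 between T and P of different treatments (−0.641 to 0.119) and in 1 of 4 between T and P of the same one (−0.25 to 0.214). The numbers thus paired the samples within T, and within P among N, H and HPP but not with NPP. In MDA-MB-231 the deviations correlated over 0.1 in 4 of 6, 4 of 6, 8 of 12 and 3 of 4 of these pairs. Intervals and floors cover counting error only.

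The subunits, pathway and marker lists were chosen with earlier results of these data known. Named genes were all 9 subunits, CA9 and EEF2, the called pathway gene with the largest absolute log2FC per role, line and fraction under HPP, and the 3 genes most like MTOR, RPTOR and RICTOR. The pathway genes called under NPP in P of MDA-MB-231 were also named, after their values were seen. MLST8, AKT1S1 and DEPTOR have no promoter window here.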

Additional observations from a re-analysis of the deposited data

How the results depend on the processing

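No subunit value that passed the test changed sign under any alternative run. Some that did not pass did so with a library left out, among them RPTOR in H in T of MDA-MB-231 and RICTOR under NPP and HPP in T of MCF10A. Among counts of called subunits, the 3 calls under treatment in MCF10A became 1 without a filter beyond 1 read, 6 with a transcript length offset and 7 with a replicate block within each fraction, and ran from 0 to 4 with each library left out. The 0 in MDA-MB-231 became 3 without a filter, and stayed 0 with any library left out. For PP242 within hypoxia the 0 in MCF10A became 1 at an adjusted p under 0.10, with DESeq2, without TMM, without a filter, with the length offset and with a replicate block within each fraction (0 to 1 over omissions), and the 0 in MDA-MB-231 became 1 without a filter and with a replicate block within each fraction. For P against T in normoxia the 0 in MDA-MB-231 became 1 with a replicate block, in which MAPKAP1 had a log2FC of −0.48 (adjusted p = 0.0462), and 1 with the block within each fraction (0 to 1 over omissions). The cause was not tested. RICTOR between the lines in P lost its call with the replicate block (1.54, adjusted p = 0.0716). MAPKAP1 under HPP lost it without a filter (adjusted p = 0.0899 in T and 0.0805 in P) and in a fit to only the libraries compared (0.0833 and 0.122), and in P without TMM (0.0558). For HPP in MCF10A, the genes called among all tested in T and P were 1630 and 2558 without a filter. They were 3374 and 4429 with the length offset and 3484 and 4785 with the block within each fraction. The subunit counts under these settings moved beside those all-gene counts. Over all genes, the count called in the report stands first and its range over the alternatives, which leaves that count out, in brackets. In MCF10A it was 1.54% of genes (191 to 601 genes) for H in T, 195 (6 to 598) in P, 85 (0 to 347) for NPP in T, 0.823% (95 to 678 genes) in P, 1956 (1212 to 3484) for HPP in T, 2910 (1642 to 4785) in P, 491 (0 to 1153) and 853 (38 to 1951) for HPP against H, 0 (0 to 2189) for P against T, and 0 (0 to 91) and 0 (0 to 127) for Te under NPP and HPP. In MDA-MB-231 it was 171 (44 to 499), 310 (162 to 822), 75 (14 to 324) and 264 (160 to 569) for H and NPP, 511 (146 to 963) and 1551 (1555 to 2391) for HPP against H, 1764 (1568 to 2959) for P against T, and 2 (1 to 18), 46 (8 to 122) and 94 (75 to 157) for Te. For HPP against N in that line it was 1786 (1767 to 2608) in T and 2627 (2806 to 3606) in P. Every alternative thus called more genes in P there than the report did. Line differences in response ranged from 38 (31 to 130), 8 (5 to 36) and 473 (381 to 941) in T to 47 (36 to 128), 18 (16 to 57) and 515 (428 to 1138) in P. Scaling to library totals shifted the median log2FC of all genes by −0.25 in T and 0.187 in P under HPP in MCF10A and by 0.335 in T and 0.319 in P between the lines, so values are relative to the average mRNA. The median Te in MCF10A shifted most, by 0.437 under HPP and 0.358 under NPP. DEPTOR in MCF10A rests on few counts (15 and 19 in normoxic T), and whether depth limits its test was not tested.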
